A study of Gallus gallus with 8 samples.

Results

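The tectorins are TECTA (alpha-tectorin) and TECTB (beta-tectorin), secreted glycoproteins of the extracellular membranes that lie over the hair cells of the inner ear. Their probe sets were taken by gene name from the deposited annotation of a chicken Affymetrix array. Each gene had 1 probe set, so the members were 2 of 14228 distinct gene names on the array and 2 probe sets of 38535, or of 38439 once control probe sets were left out.

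RNA was compared between sensory epithelia of the utricle, a balance organ, and of the cochlea, the hearing organ, in chick embryos (Gallus gallus). Each tissue had 4 arrays, which the labels call biological replicates. Incubation at 38 °C lasted 20 to 21 days, and no strain, genotype or treatment distinguished the tissues in the labels. Each sample held total RNA from 10 to 20 pooled epithelia, so an array is not a single animal, and labelling used 0.08 µg of RNA. According to the labels, the dissection kept hair cells and supporting cells. Whether any embryo contributed to more than 1 array is not given in the sources used here.

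Both tectorins carry a zona pellucida (ZP) domain, through which proteins of this family assemble into filaments. In vertebrates they are made by cells of the epithelium, are released at the surface, and form noncollagenous matrix of the tectorial membrane of the cochlea and of the otolithic membranes of the vestibular maculae. The tectorial membrane couples sound-driven motion to hair bundles, and the otolithic membrane carries mineral crystals whose inertia loads the bundles. In mice, loss of alpha-tectorin detaches the tectorial membrane, and loss of beta-tectorin disturbs its striated-sheet matrix.

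TECTA was higher in the cochlea. Its log2 signal was 8.997, 9.43, 9.81 and 9.77 on utricle arrays 1 to 4. On cochlea arrays 1 to 4 it was 10.25, 11.42, 11.91 and 11.92. Each cochlea array lay above each utricle array, with a gap of 0.44 on the log2 scale between the lowest cochlea and the highest utricle array, and array 1 was the lowest of its tissue in both. The means were 9.50 ± 0.38 in the utricle and 11.38 ± 0.79 in the cochlea (log2 signal ± SD, n = 4 arrays per tissue). The difference, cochlea minus utricle, was 1.87 on the log2 scale (SE 0.37, 95% confidence interval 1.02 to 2.73), a 3.66-fold higher signal (interval 2.03 to 6.61). It passed the threshold of an adjusted p under 0.05 in limma, with adjusted p = 0.00293 by Benjamini-Hochberg over all 16223 tested probe sets. In bulk samples such as these, fewer cells of a type and less RNA per cell cannot be told apart.

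TECTB was also higher in the cochlea, by a smaller fold. Its log2 signal was 14.89, 14.72, 14.83 and 14.84 on utricle arrays 1 to 4. On cochlea arrays 1 to 4 it was 15.36, 15.19, 15.30 and 15.34. The tissues did not overlap, with a gap of 0.30 on the log2 scale, and array 2 was the lowest of its tissue in both. The means were 14.82 ± 0.07 in the utricle and 15.30 ± 0.08 in the cochlea (log2 signal ± SD, n = 4 arrays per tissue). The difference was 0.48 on the log2 scale (SE 0.08, 95% confidence interval 0.30 to 0.66), a 1.40-fold higher signal (interval 1.23 to 1.58), with a limma adjusted p = 0.00106.

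Both of the 2 members were thus called higher in the cochlea, where 25.1% of all tested probe sets were called in that direction. The tissues did not overlap, with the cochlea higher, in both members and in 24.1% of tested probe sets. An exact permutation test over the 8 arrays, two-sided, gave p = 0.0286 for each tectorin, the smallest p that 70 splits of the arrays allow. The number of arrays limits the precision of every value given here.

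**Figure D1:**
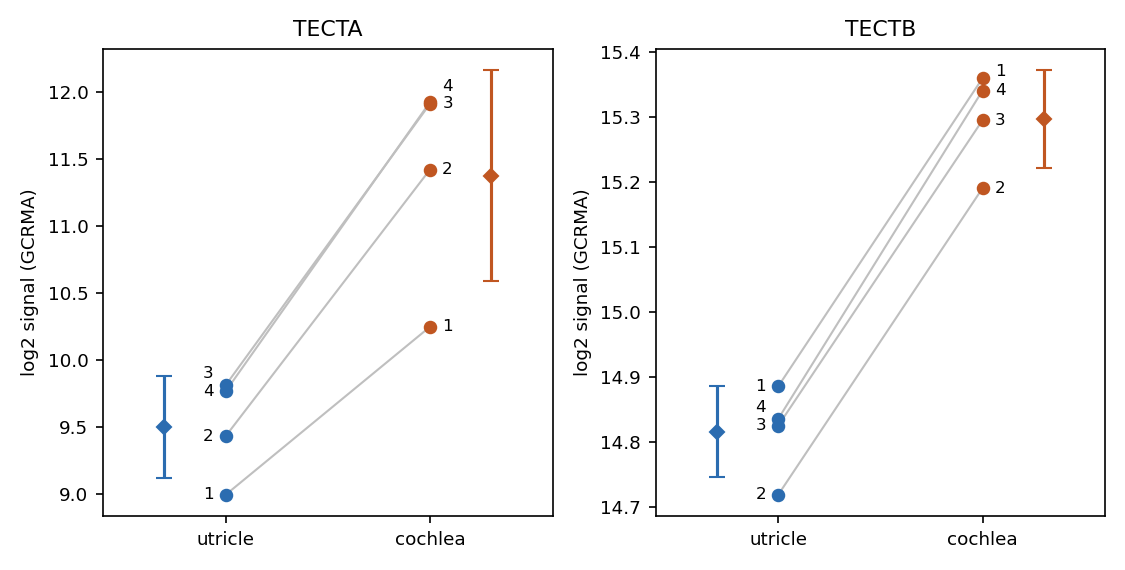
Log2 GCRMA signal of TECTA and TECTB (vertical axes, which do not start at 0 and differ between the panels) in the utricle and the cochlea. Circles are single arrays with their numbers, grey lines join arrays of the same number, and diamonds with bars are means ± SD over 4 arrays. All cochlea arrays lie above all utricle arrays for both genes, and the TECTB lines run nearly parallel.

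The labels number the arrays 1 to 4 in both tissues and do not say what a number means. Across the tested probe sets, deviations from the tissue means correlated between arrays of the same number at 0.552, 0.480, 0.404 and 0.144. Cochlea array 4 was closer to utricle array 3 (0.305), so the match of the arrays numbered 4 is uncertain. For TECTB the difference between arrays of the same number, cochlea minus utricle, was 0.47, 0.47, 0.47 and 0.51 on the log2 scale for numbers 1 to 4. The SD of these 4 differences was 0.0167. Only 35 of the 16223 tested probe sets, or 0.216%, had a smaller SD, and the median SD over all of them was 0.209. Bright probe sets varied less within tissues, and the SD of these TECTB differences was not ranked among bright probe sets alone. For TECTA the same differences were 1.25, 1.99, 2.10 and 2.16, with an SD of 0.42, and the pair numbered 1 stood below the other 3.

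The test of whether the tissue difference was larger for TECTA than for TECTB did not pass. Per array, log2 TECTA minus log2 TECTB was on average 1.39 higher in the cochlea, so that the fold of TECTA was 2.63 times that of TECTB, with p = 0.0857 (exact permutation test, two-sided, 8 arrays). The 4 differences by array number were 0.78, 1.52, 1.63 and 1.65, each in the direction of a larger TECTA difference. Without cochlea array 1 the difference, as utricle minus cochlea, was -1.79, in the same direction, with an exact permutation p = 0.0286. Among the settings tried that allowed a p under 0.05, the call of unequal tissue differences therefore rested on whether that array was included.

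Within each tissue the 2 tectorins varied in different ways. The deviations of TECTA from its tissue mean were -0.51, -0.07, 0.31 and 0.26 on utricle arrays 1 to 4. On the cochlea arrays they were -1.13, 0.04, 0.53 and 0.55. TECTA was thus low on both arrays numbered 1 and high on those numbered 3 and 4. The deviations of TECTB were 0.07, -0.10, 0.01 and 0.02 in the utricle. They were 0.06, -0.11, -0.0014 and 0.04 in the cochlea. TECTB was highest on the arrays numbered 1 and lowest on those numbered 2, over a far narrower range than TECTA. Over the 8 arrays, which share 2 tissues, the signals of the tectorins correlated at a Pearson r of 0.81, and their deviations from the tissue means at -0.27.

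The pooled SD within tissues was 0.62 for TECTA, above that of 96.9% of the tested probe sets, and 0.07 for TECTB, above that of 4.75%. The 143 tested probe sets with a mean log2 signal of at least 14 had a median pooled SD of 0.08, against 0.20 over all tested probe sets, so the spread of TECTB was close to that of probe sets of its brightness. In the cochlea alone the SD of TECTA was above that of 98.5% of them.

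Other transcripts also varied among the arrays of a tissue. Haemoglobins HBAA, HBAD and HBBA, which mark red blood cells, had a median deviation of -2.95 on utricle array 1 and -2.89 on cochlea array 1. It was 1.63 and 2.35 on the arrays numbered 4. The 3 tested of 8 fibroblast markers (COL1A2, COL3A1 and DCN) had a median deviation of -1.03 on utricle array 1 and -2.71 on cochlea array 1, and the 2 tested markers of ion-transporting epithelium (SLC12A2 and BSND) had -0.46 and -1.28. On the arrays numbered 4 the fibroblast markers went opposite ways, at -0.65 in the utricle and 1.21 in the cochlea. The ion-transport markers had -0.80 and 0.02 there, so utricle array 4 was lower for them than utricle array 1. The arrays on which TECTA was lowest were thus also the lowest in haemoglobin signal. Summed over the 4 red blood cell markers on the array, the linear signal ranged from 1132 to 23693 in the utricle and from 993 to 36687 in the cochlea, with HBE under a log2 signal of 4 on all arrays. Over the 6 fibroblast markers on the array the sum ranged from 593 to 1584 and from 134.9 to 1372, with LUM, POSTN and TWIST1 under 4 on all arrays. Over the 5 markers of ion-transporting epithelium it ranged from 1077 to 1644 and from 838 to 1350, with KCNE1 and KCNQ1 under 4. None of the tested members of these 3 lists passed the test between tissues. With the array number as a block SLC12A2 was called toward the utricle (limma adjusted p = 0.0438, against 0.214 without it), and COL3A1 was called toward the utricle in 7 of 19 other settings. Their part in the TECTA values was not tested. Hair cell markers had median deviations of -0.06 and -0.25 on the arrays numbered 1, and supporting cell markers -0.10 and -0.06.

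**Figure D2:**
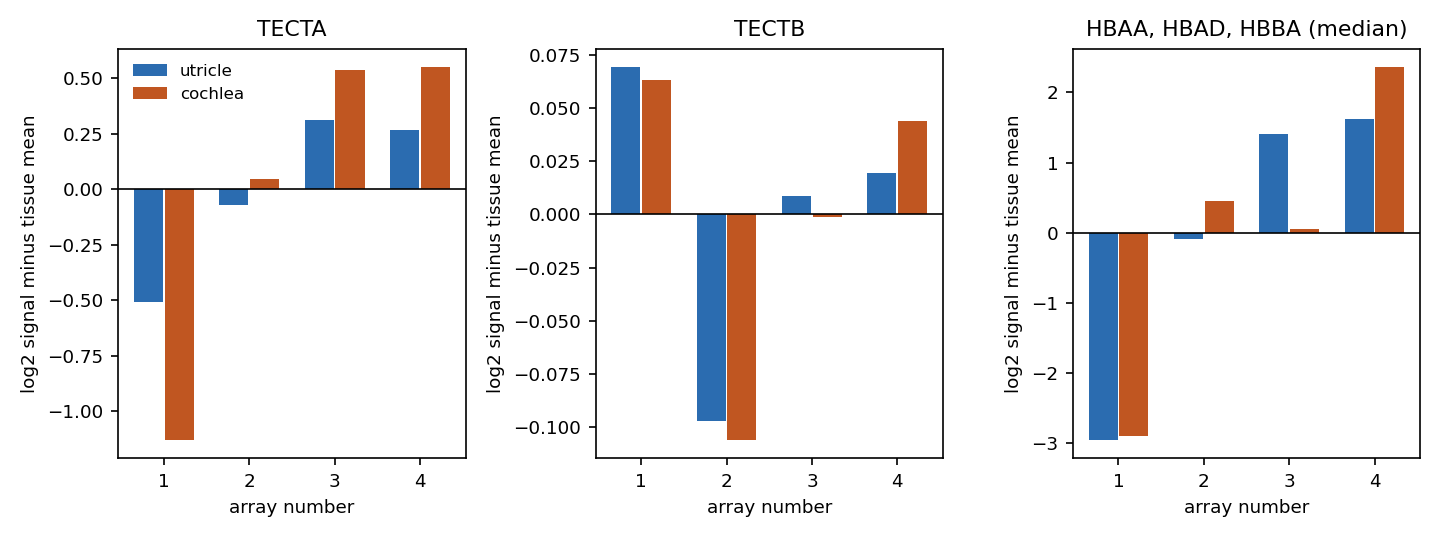
Deviation of log2 signal from the tissue mean (vertical axes, scaled separately in each panel) by array number for TECTA, TECTB and the median of HBAA, HBAD and HBBA. Bars are single arrays of the utricle and the cochlea. TECTA and the haemoglobins are lowest on both arrays numbered 1, where TECTB is highest.

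The arrays numbered 1 were, by their values, also those under the smaller of the 2 prefixes in the array names of the deposited workbook, with 1 array per tissue. Between those arrays TECTA was 2.38-fold higher in the cochlea, with no test possible. Among the 6 arrays of the larger prefix it was 4.23-fold higher, at 9.67 ± 0.21 against 11.75 ± 0.29 (log2 signal ± SD, n = 3 per tissue), with a limma adjusted p = 2.40e-04. TECTB was 1.39-fold higher under the smaller prefix and 1.40-fold higher under the larger, where its limma adjusted p was 0.00784. Array number 1 and prefix cannot be told apart.

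The tectorins took different places among the tested probe sets. TECTB was one of the brightest: its mean over the 8 arrays, 15.06, was exceeded by 14 probe sets. On single arrays 28, 54, 42 and 33 probe sets were brighter in the utricle, and 10, 17, 12 and 8 in the cochlea. The mean of TECTA, 10.44, was above that of 82.4% of the tested probe sets. From utricle to cochlea its place rose from between 4119 and 5895 brighter probe sets to between 1097 and 3284. These are ranks of signal on an array, where probe sets differ in how strongly they bind, so the levels of the genes themselves were not compared.

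The size of the TECTA difference was larger than that of 90.8% of the tested probe sets, and that of TECTB larger than 55.7%. Among the 143 tested probe sets with a mean log2 signal of at least 14, the median size of the tissue difference was 0.16, against 0.41 over all tested probe sets. Only 10 of these 143 differed further toward the cochlea than TECTB, 25 were called higher in the cochlea and 23 in the utricle, the direction in which 26.4% of all tested probe sets were called. Whether the TECTB difference is compressed near the top of the signal scale was not tested.

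**Figure D3:**
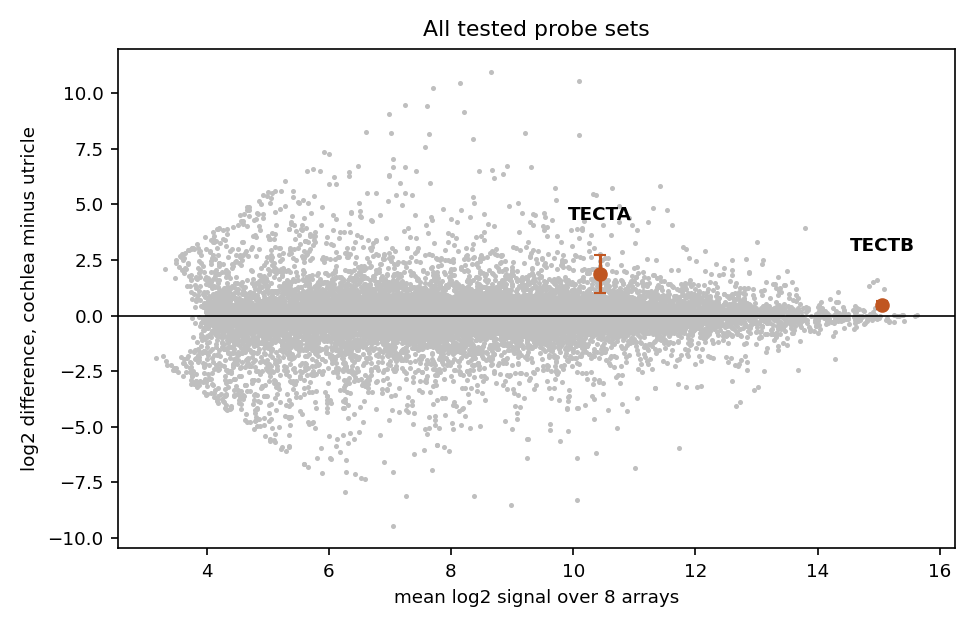
Difference in log2 signal, cochlea minus utricle (vertical axis), against mean log2 signal over the 8 arrays (horizontal axis) for the 16223 tested probe sets (grey). TECTA and TECTB are marked with 95% confidence intervals of the limma fit. Differences narrow toward high signal, where TECTB lies at a mean of 15.06.

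The probe sets most like each tectorin were sought among 7063 tested probe sets with a gene symbol and a mean log2 signal of at least 6, by Pearson correlation over the 8 arrays, which fall into 2 tissues. For TECTA these were ADCY9, an adenylyl cyclase, at 0.98, CCDC84 at 0.98, the anion exchanger SLC4A2 at 0.98, EPS8L2, an actin-regulating protein found in hair cells of mice, at 0.98 and the retinoid receptor RXRA at 0.98. For TECTB they were OSGIN2 at 0.9969, the glucose transporter SLC2A1 at 0.9961, the phosphatase PHLPP1 at 0.9942, BLOC1S4 at 0.9927 and ferritin light chain FTL at 0.9926. All 10 differed toward the cochlea, which the choice by correlation favours.

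Ranking by the deviations from the tissue means, which leaves out the tissue difference, gave other genes. RXRA was the closest to TECTA at 0.9958, and it was the only gene on both of its lists of 5. SUPT5H followed at 0.99, then a dimmer probe set of LFNG, a glycosyltransferase that modifies Notch, at 0.98, ATXN2 at 0.98 and CSPG5, a proteoglycan, at 0.98. All 5, RXRA included, were lowest on both arrays numbered 1, where TECTA deviated most. Those arrays are also the only ones under the smaller prefix. The LFNG probe set was higher in the utricle, at a mean log2 signal of 8.08 against 5.05, and so was CSPG5, at 10.58 against 5.48, the opposite direction to TECTA. The brightest LFNG probe set was not lowest on the arrays numbered 1, as TECTA was. It was lowest on utricle array 2 (13.57) and cochlea array 4 (11.43). The closest to TECTB were XRCC6 at 0.98, a dimmer probe set of OTOA at 0.98, SEC22A at 0.97, IFFO1 at 0.97 and ARSH at 0.97. OTOA encodes otoancorin, a protein that in mice attaches these membranes to nonsensory cells. The OTOA probe set was highest on the arrays numbered 1 and lowest on those numbered 2 in both tissues, as TECTB was, with deviations of 0.28 and -0.48 in the utricle and 0.46 and -0.56 in the cochlea. The choice by correlation favours such a match. The brightest OTOA probe set was also highest on the arrays numbered 1. It was lowest on utricle array 3 (10.34) and cochlea array 2 (10.52), so in the utricle it did not follow TECTB.

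The other genes listed for the tectorial membrane split by direction. Of 14 genes listed for its matrix and attachment, tectorins included, 11 had a named probe set and 9 were tested, each by its brightest probe set. Of the 9, 5 had a higher cochlear and 3 a higher utricular signal, and 1 did not pass. Over all 8304 tested genes, 26.7% were called higher in the cochlea and 26.6% in the utricle. The median difference of the 9 was 0.48 on the log2 scale toward the cochlea, against -0.0022 over all tested genes. That median is the TECTB difference itself. Utricle and cochlea arrays were fully apart in 7 of the 9, both tectorins among them, and in 51.1% of all tested genes. Without the tectorins, those called toward the cochlea were OTOA, COL2A1 and COL9A3. Those called toward the utricle were OTOG, COL9A1 and COL11A1. COL9A2 and EMILIN2 were too dim to be tested, and CEACAM16, STRC and COL11A2 were not analysed here.

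Of the large mucin-like partners of the tectorins, OTOG went the opposite way and OTOGL was not called. OTOG, otogelin, had a log2 signal of 11.85, 11.88, 12.04 and 12.14 in the utricle and of 7.64, 7.61, 7.90 and 8.15 in the cochlea. The utricle was 17.8-fold higher (limma adjusted p = 7.54e-08), with no overlap. OTOGL, the related otogelin-like protein, was named by hand from a description that gives its older name, although the abbreviation in the same sheet reads OTOG. It stood at 13.19 ± 0.07 in the utricle and 13.41 ± 0.32 in the cochlea (n = 4 per tissue, limma adjusted p = 0.266). None of its 3 probe sets passed, and each was higher in the cochlea, by 0.22, 0.31 and 0.43 on the log2 scale.

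The brightest probe set of OTOA was 1.44-fold higher in the cochlea (limma adjusted p = 0.0204), at 10.53, 10.40, 10.34 and 10.44 in the utricle and 11.29, 10.52, 10.92 and 11.07 in the cochlea. The tissues overlapped by utricle array 1 and cochlea array 2. The call was lost without utricle array 3 (adjusted p = 0.0520) and without cochlea array 4 (adjusted p = 0.0535), as well as among the arrays of the larger prefix (0.0598) and with no filter on dim probe sets (0.0783). Its other tested probe set was also higher in the cochlea, with an adjusted p of 0.0211.

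Collagen chains on the tectorial membrane list went in both directions. Whether they are part of this membrane in the chick was not tested. COL9A3, a chain of type IX collagen, was 5.65-fold higher in the cochlea (11.36 ± 0.17 against 13.85 ± 0.29, limma adjusted p = 2.88e-06, n = 4 per tissue). COL9A1, another chain of the same collagen, was 4.61-fold higher in the utricle (13.76 ± 0.15 against 11.55 ± 0.62, limma adjusted p = 2.00e-04, n = 4 per tissue). COL2A1, the chain of type II collagen, was 1.84-fold higher in the cochlea (limma adjusted p = 0.0117), but the call was lost with no filter on dim probe sets (0.0631). COL11A1, a chain of type XI collagen, was 1.70-fold higher in the utricle (limma adjusted p = 8.32e-04), and all 5 of its tested probe sets were called in that direction. Of 6 cartilage markers on the array, COL2A1 among them, 3 were tested, with 1 called toward the utricle and 2 toward the cochlea, and MATN1 was under a log2 signal of 4 on all arrays. ACAN, the 1 called toward the utricle, exceeded 4 only on utricle arrays, so the filter fixed its direction. The summed linear signal of the cartilage markers ranged from 2135 to 3080 in the utricle and from 6488 to 10170 in the cochlea. Shares called over all tested genes were 26.6% toward the utricle and 26.7% toward the cochlea. The part of cartilage RNA in the collagen values was not tested.

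Genes of the otolithic membrane and its mineral were called in both directions, more of them toward the utricle. Of 10 genes listed, 9 had a named probe set and 7 were tested, of which 4 were called toward the utricle and 1 toward the cochlea, and the other 2 did not pass. The median difference was -0.80 on the log2 scale, and in 5 of them no utricle array overlapped a cochlea array. Over all tested genes these shares were 26.6% toward the utricle, 26.7% toward the cochlea and 51.1% without overlap. OTOL1, the otolith protein otolin, lay between 14.01 and 14.34 in the utricle and between 4.83 and 7.23 in the cochlea (308-fold, limma adjusted p = 1.03e-06). OTOP1, a proton channel that mice need to form otoconia, was 33.5-fold higher in the utricle (limma adjusted p = 6.67e-08). SPARC, a calcium-binding matrix protein, was 1.74-fold higher in the utricle (3.02e-04), and the anion exchanger SLC26A4 at least 1.99-fold higher (9.35e-07), where array values under 4 were raised to 4. SLC26A4, counted among the 4 and the 5, exceeded a log2 signal of 4 only on utricle arrays. The filter thus fixed its direction and its lack of overlap.

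SPP1, osteopontin, was the only member called in the direction of the tectorins. Its log2 signal was 2.85, 2.90, 4.73 and 3.11 in the utricle and 7.41, 7.53, 8.30 and 7.96 in the cochlea. That made it at least 12.3-fold higher in the cochlea (limma adjusted p = 3.75e-05). It exceeded a log2 signal of 4 on a single utricle array, so it passed the filter through the cochlea arrays. The filter thus favoured its direction and its lack of overlap. OC90, the otoconial protein otoconin-90, had a limma adjusted p of 0.817, with 14.12, 14.23, 14.26 and 12.05 in the utricle and 11.91, 14.04, 13.65 and 14.29 in the cochlea. SPARCL1 stood at 5.03 ± 1.08 and 6.33 ± 0.48 (n = 4 per tissue, limma adjusted p = 0.0583). NOX3 and NOXO1 were too dim to be tested.

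**Figure D4:**
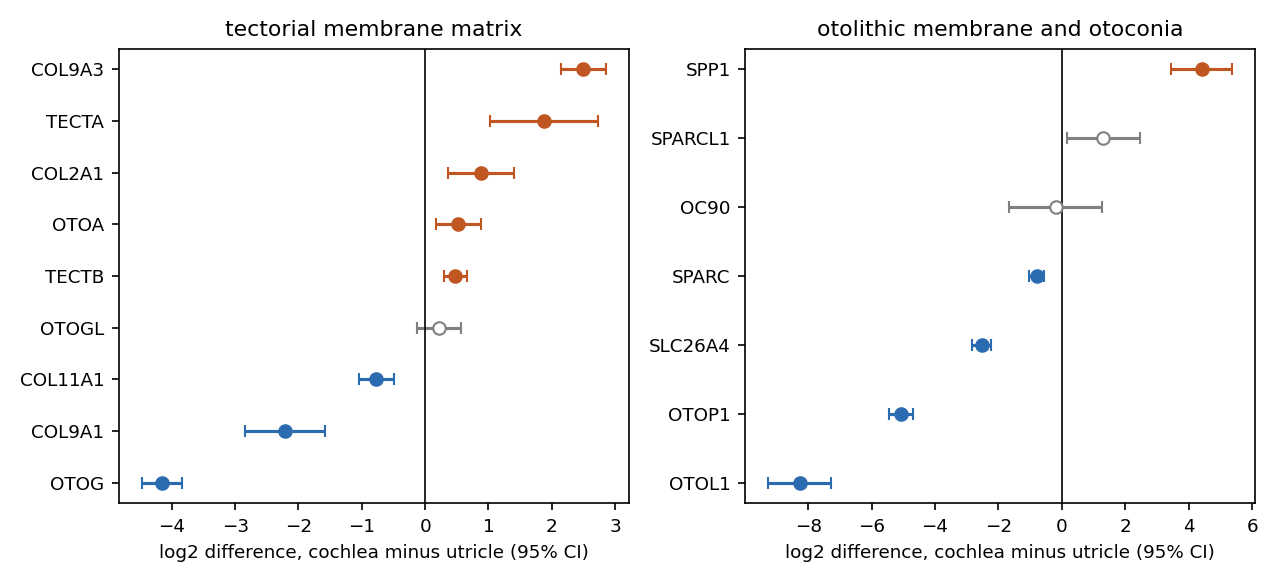
Difference in log2 signal, cochlea minus utricle (horizontal axes), for the tested genes listed for the tectorial membrane and the otolithic membrane, each by its brightest probe set. Bars are 95% confidence intervals of the limma fit over 8 arrays, and open circles did not pass an adjusted p under 0.05. TECTA and TECTB lie to the right of 0 and OTOG, COL9A1, OTOL1 and OTOP1 far to the left.

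Among other proteins with a ZP domain, few passed the filter on dim probe sets. Of 17 family members listed, 14 had a named probe set and 4 were tested, the tectorins included, and 9 were under a log2 signal of 4 on all arrays. OIT3, a secreted ZP-domain protein known from liver, was 2.77-fold higher in the utricle (8.22 ± 0.27 against 6.75 ± 0.21, limma adjusted p = 7.85e-05, n = 4 per tissue). UMODL1 was near the filter, at 3.97 against 4.11, and did not pass (limma adjusted p = 0.206). Of the 4 tested members of this family, those called higher in the cochlea were the 2 tectorins, a direction called in 26.7% of all tested genes.

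In mice, alpha-tectorin is held at the cell surface through a glycosylphosphatidylinositol (GPI) anchor before release. Of 29 genes that make, attach or remodel this anchor, 24 had a named probe set and 15 were tested. The test called 4 of these toward the utricle and 2 toward the cochlea and left 9 uncalled, with a median difference of -0.13. The shares over all tested genes were 26.6% toward the utricle and 26.7% toward the cochlea, so the utricular share of these genes was near the background. PIGX, a subunit of the first mannosyltransferase, was 1.55-fold higher in the cochlea (limma adjusted p = 0.00173). PIGL, which removes an acetyl group early in the pathway, was 1.70-fold higher (0.00281). The dimmer of the 2 tested PIGX probe sets was not called. PIGB, another mannosyltransferase, was 1.39-fold higher in the utricle (0.00116), PIGF, which acts in adding ethanolamine phosphate, 1.54-fold (0.00265) and PIGP, a subunit of the enzyme of the first step, 1.42-fold (0.00448).

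ZP-domain proteins are released from their anchor region by proteases. Of 12 proprotein convertases and membrane serine proteases, 8 had a named probe set and 7 were tested, each by its brightest probe set. Of these, 2 were called toward the cochlea, 1 toward the utricle and 4 were not called. Over all tested genes, 26.7% were called toward the cochlea and 26.6% toward the utricle. PCSK5 was among those not called (limma adjusted p = 0.626), but of its 6 tested probe sets 4 dimmer ones were called toward the utricle. PCSK7, a convertase, was 1.53-fold higher in the cochlea (limma adjusted p = 0.00460) and ST14, matriptase, 1.38-fold (0.00659). The dimmer of the 2 tested ST14 probe sets was not called. MBTPS1, a serine protease of the Golgi, was 1.31-fold higher in the utricle (0.0209), a call lost without utricle array 3 (0.0544), without utricle array 4 (0.0546) and with no filter (0.0568). FURIN was under a log2 signal of 4 on all arrays.

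Supporting cells are among the cells of the epithelium that make tectorins, and most of their called markers differed toward the utricle. Of 15 markers, 14 had a named probe set and 12 were tested, with 7 called toward the utricle, 0 toward the cochlea and 5 not called, at a median difference of -0.94. These counts are of the brightest probe set of each marker. Beside them, 26.6% of all tested genes were called toward the utricle and 26.7% toward the cochlea. Of the 7, JAG1 exceeded a log2 signal of 4 only on utricle arrays, so the filter fixed its direction. At an unadjusted p under 0.05 limma gave 7 toward the utricle and 0 toward the cochlea, and with the array number as a block it called 8 and 0. A dimmer probe set of CDKN1B, a cell cycle inhibitor, was called toward the cochlea (adjusted p = 0.0380), and 1 marker of the list was called in that direction with no filter, on the authors' detected probe sets and without utricle array 3. SOX2, a transcription factor of sensory progenitors and supporting cells, was 2.47-fold higher in the utricle, PROX1 2.11-fold, LFNG 4.53-fold and HES5, a Notch target, 19.1-fold, each with a limma adjusted p of 7.38e-04 or less. GJB6, a connexin of supporting cells, stood at 15.61 ± 0.03 and 15.64 ± 0.07 (n = 4 per tissue, limma adjusted p = 0.756). FGFR3 was under a log2 signal of 4 on all arrays. The summed linear signal of these markers ranged from 93821 to 99859 in the utricle and from 70147 to 75189 in the cochlea. GJB6, the brightest of them, weighed most in that sum. The part of these markers in the tectorin values was not tested. Of 16 tested hair cell markers, 8 were called toward the utricle and 6 toward the cochlea, beside the same shares over all tested genes.

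In the authors' deposited table, both tectorins were called present on 4 of 4 arrays of each tissue. The authors' deposited table called TECTA higher in the cochlea, at a ratio of 3.99 and a q-value of 0 percent by SAM. TECTB was not called in the authors' deposited table, whereas limma called it here. SAM and limma are different tests and their thresholds were not matched, so these calls are not directly comparable.

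The share of probe sets above a log2 signal of 4 lay between 40.98% and 41.77% on every array. Over the tested probe sets, which are not independent, the correlation of utricle arrays with each other was 0.978 to 0.987, that of cochlea arrays 0.983 to 0.991, and that of arrays from different tissues 0.857 to 0.884. Marker lists of other cells also held called members, beside 26.7% of all tested genes called toward the cochlea and 26.6% toward the utricle. With so few tested markers per list, a change in the share of a cell type was not tested. Of 4 tested neuron markers, 2 were higher in the cochlea and 1 in the utricle. Of leukocyte markers 3 of 3 tested, and of melanocyte markers 2 of 2, were higher in the utricle. Of the single tested markers of endothelium and of muscle, the first was higher in the utricle and the other in the cochlea, and of 4 tested Schwann cell markers 1 was higher in the cochlea. The neuron marker NEFM and the Schwann cell marker S100B exceeded a log2 signal of 4 only on cochlea arrays. The melanocyte marker DCT exceeded it only on utricle arrays. The filter thus fixed the directions of these markers.

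**Figure D5:**
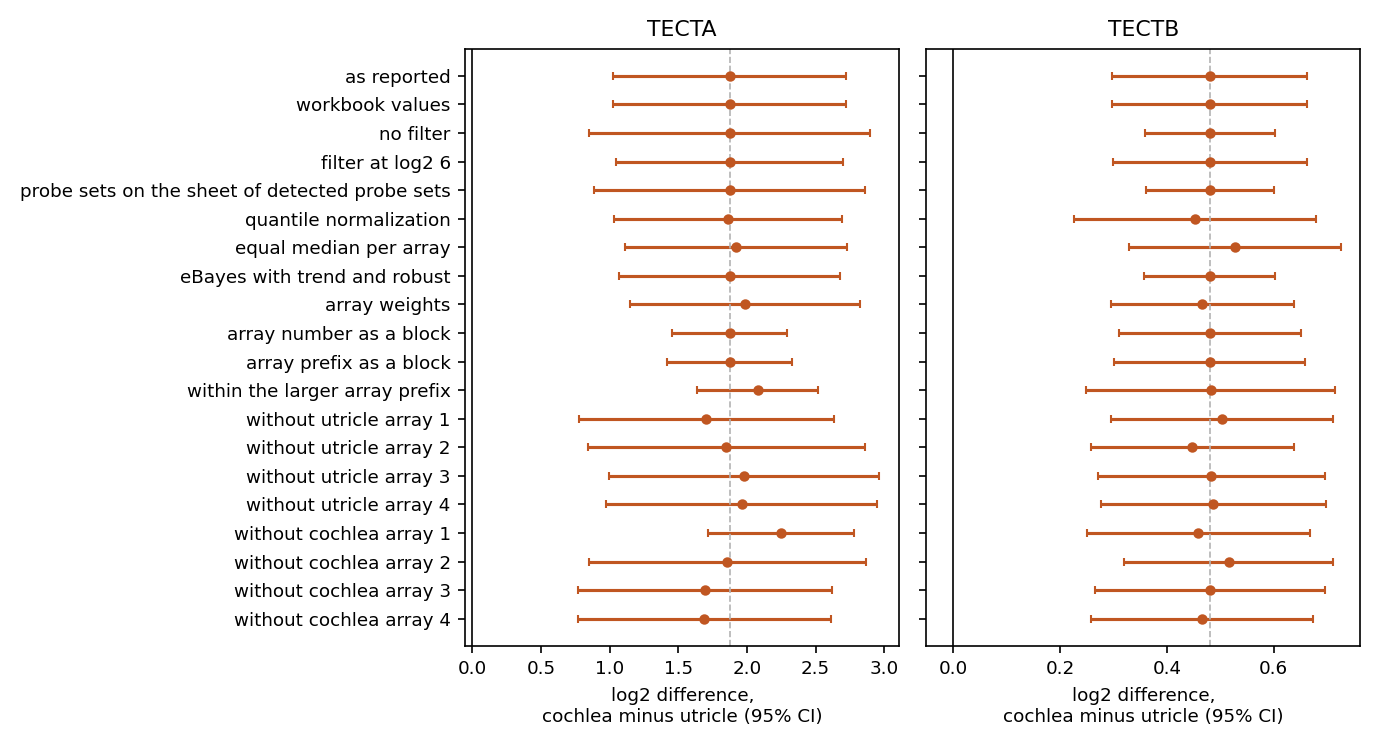
Difference in log2 signal, cochlea minus utricle (horizontal axes, scaled separately), of TECTA and TECTB as reported and under each of 19 other settings, with 95% confidence intervals from limma. The dashed line marks the value as reported. All intervals lie above 0, and TECTA is furthest from it without cochlea array 1.

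Under 19 other settings of the values, the filter, the scaling, the model and the arrays included, the TECTA difference ranged from 3.23-fold to 4.75-fold and the TECTB difference from 1.36-fold to 1.44-fold, each called higher in the cochlea in all 19. The settings share most of their arrays. The workbook values equal those as reported, so that setting could not change the result. The 3 other filters left the difference itself unchanged.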

How the data were processed

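RNA of 4 utricle and 4 cochlea samples was hybridised to 1 array each. The authors deposited log2 signal made with GCRMA, per the submitters' processing notes, whose version is not given in the sources used here. The deposited workbook adds detection calls, and a SAM comparison with a fold as a ratio and a q-value in percent, per the file headers. Its log2 values equalled the value table for all 38535 probe sets in each tissue (tolerance 1e-06). A further 128 per-array columns, counted over all sheets of the workbook, were not used. No build is named in the files, so no coordinates or sequences are given.

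Probe sets were named from the workbook's annotation, updated through a RefSeq table of the assembly GRCg7b, with 37 named by hand. A probe set was tested if its log2 signal exceeded 4 on at least 4 of 8 arrays. The two-sided comparison of tissues used lmFit and eBayes of limma 3.58.1, in R 4.3.3, with Benjamini-Hochberg adjustment over all 16223 tested, and the fit was tested on simulated data. A gene was represented by its brightest tested probe set. Tables used Python 3.11.15. Folds against values under 4 are lower bounds, with those values raised to 4.

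Named are the tectorins, every tested member of both membrane lists, up to 3 called members per direction of the ZP, GPI and protease lists, and the 5 probe sets most like each tectorin. Markers named beside them were chosen after their values were seen. Members and lists were chosen with earlier results of these data known.

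Deviations from the tissue means of arrays with the same number correlated at 0.552, 0.480, 0.404 and 0.144 across tested probe sets. All exceed 0.1, so differences between arrays of the same number were also given, and the array number served as a block in an alternative fit. The limma fit as reported used no pairing. The meaning of a number is not given in the labels, and the closest utricle array to cochlea array 4 was number 3 (0.305).

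Alternatives were the workbook values, 3 other filters, 2 scalings, eBayes with trend and robust, array weights, the array number or prefix as a block, the larger prefix alone and leaving out each array.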

Additional observations from a re-analysis of the deposited data

Results flagged for a closer look

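For the tectorins the gap to the nearest array, over the whole range of the tissue, was at most 0.70 (TECTA in the cochlea, array 1), under Dixon's 95% critical value for 4 arrays. A test on 4 values finds only large gaps. Among the 16 tested genes of both membrane lists, in each tissue, 4 of 32 groups of 4 arrays had 1 array far from the other 3, with that ratio above the critical value. Chance flags about 1 in 20 such groups, or 1.6 of 32.

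The ratio was 0.936 for OC90 in the utricle, where array 4 stood at 12.05 and the others between 14.12 and 14.26. It was 0.848 for COL2A1 in the utricle, where array 1 stood at 10.85 and the others between 11.29 and 11.37. For SPP1 in the utricle it was 0.860, with array 3 at 4.73 and the others at or under 3.11. For SLC26A4 in the cochlea it was 1.00, between values of 2.4606 on 3 arrays and 2.4616 on array 4, all under the filter.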

How the results depend on the processing

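TECTA and TECTB were called higher in the cochlea in 19 of 19 alternatives, including the workbook values, which equal those as reported. Leaving out 1 array at a time, the utricle minus cochlea difference ranged from -2.25 (without cochlea array 1) to -1.69 for TECTA and from -0.52 to -0.45 for TECTB. The difference of their differences ranged from -1.79 to -1.20 and kept its direction in 15 of 15 alternatives. It passed only without cochlea array 1 (-1.79, exact permutation p = 0.0286). With the array number as a replicate block it was -1.39 with an exact permutation p = 0.125, the smallest the pairing allows. With that block the limma adjusted p was 3.51e-04 for TECTA and 0.00203 for TECTB, and the block changed the calls of PIGG (0.00240), SOX9 (0.0424) and SLC12A2 (0.0438), all toward the utricle, and of no other gene of the gene lists, supporting cell marker or named blood, fibroblast and ion-transport marker. OC90, which was not called, changed direction to -0.48 among the arrays of the larger prefix and ranged from -0.33 to 0.73 with 1 array left out (-0.0024 without utricle array 3 and -0.33 without cochlea array 1). GJB6, also not called, changed to 0.13 under quantile normalization and ranged from -0.054 to 0.0029 with 1 array left out. Other genes that were not called also changed direction with 1 array left out: PIGC ranged from -0.15 to 0.068, PIGM from -0.037 to 0.31, PIGT from -0.20 to 0.0057, PIGW from -0.019 to 0.31, PCSK2 from -0.10 to 0.035, TMPRSS3 from -0.14 to 0.24, HES1 from -0.56 to 0.91, BSND from -0.061 to 1.19, DCN from -0.26 to 1.25, HBAA from -0.77 to 0.99, HBAD from -0.998 to 1.04 and HBBA from -0.83 to 1.12. With array weights the values were 0.019 for TMPRSS3, -0.040 for HES1 and -0.027 for HBAD, within the larger prefix -0.049 for HES1 and -0.0048 for HBAD, under quantile normalization -0.0012 for HES1 and with equal medians -0.0032 for HBAD. SPARCL1 passed in 4 of 18 alternatives, with adjusted p from 0.0358 to 0.223. PIGQ was lost among the arrays of the larger prefix (0.0643). Of both membrane lists, 6 to 7 genes were called toward the utricle (7 as reported). Toward the cochlea it was 4 to 7, the tectorins included (6 as reported), with 4 when no filter was used. Probe sets called numbered 3034 to 4855 toward the utricle and 3076 to 4583 toward the cochlea. The causes of these changes were not tested. The mean over several probe sets was not run, as each tectorin has 1. Signals near the filter limit SPP1, SLC26A4 and UMODL1, and 4 arrays per tissue limit all results.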
